A study of Drosophila melanogaster with 3 samples.

Results

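The genes described here encode the replication-independent histones and histone variants of Drosophila melanogaster that lie outside the repeated histone gene cluster. They are His2Av, His3.3A, His3.3B, His4r, BigH1 and cid, picked by name in the Ensembl annotation by a rule that uses no measured value, although earlier results of these data were known when the list was made. They are 6 of the 13945 protein-coding genes on the main chromosome arms. Binding was measured by chromatin immunoprecipitation and sequencing (ChIP-seq) of CG30403, in a stable transgenic line that makes this protein with enhanced green fluorescent protein (eGFP) at its C terminus. All samples were whole embryos of that line, 0 to 24 h old, with males and females pooled, and their sonicated chromatin (200 to 800 bp) was precipitated through the eGFP. They form 1 group of 3 biological replicates. No second genotype, stage or treatment was compared, and the control library was not analysed here. Whole embryos mix all cell types, so strong binding in few cells and weak binding in many cannot be told apart. Any effect of the tag on the protein was not tested.

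Canonical histones are made in S phase from tandem gene copies, and their mRNAs end in a stem-loop. Replication-independent genes are separate single genes, usually with introns and polyadenylated mRNAs, and supply histones outside S phase. His2Av encodes the only H2A variant of the fly, which serves the roles of both H2A.Z and H2A.X. His3.3A and His3.3B encode H3.3, which is placed at transcribed genes and other sites of nucleosome turnover. His4r encodes an H4 of the canonical sequence, cid encodes the centromeric H3 variant of the CENP-A family, and BigH1 encodes the linker histone of the early embryo and germ line. The proteins translated from the genome sequence had 141 residues (His2Av), 136 residues each (His3.3A and His3.3B), 103 residues (His4r), 353 residues (BigH1) and 225 residues (Cid). The His3.3A and His3.3B proteins were identical at 136 of 136 residues, although their coding bases were 86% identical. His3.3A differed from the first H3 copy of the cluster at 4 residues, and His4r was identical to the first H4 copy at 103 of 103 residues with 83.8% of coding bases identical. The more divergent members were identical to their canonical counterparts at 79 of 119 aligned residues (His2Av), 34 of 78 (Cid) and 67 of 179 (BigH1).

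The tagged protein was found near a start site of His2Av and of His3.3B, and those sites carry the results below. Shown first are 120 bases around the strongest His2Av summit (the base of highest signal in a region), which lie in an intron of the neighbouring gene ball at 3R:26866656-26866775, then the 121 bases between ball and His2Av (3R:26866808-26866928), both on the plus strand. The third stretch is 151 bases centred on the intronic summit of His3.3B (X:9155253-9155403, minus strand, the strand of the gene). For comparison, the gaps between their divergent neighbours and 2 members with no reproducible region follow, both on the plus strand: His3.3A (2L:5055017-5055057, 41 bases) and His4r (3R:14625704-14625754, 51 bases). Sequences are from the NCBI RefSeq Release 6 assembly (dm6), run 5′ to 3′, and have in capitals each match to CGATA (the core of the motif bound by the insulator protein BEAF-32, written TATCG on the other strand).
His2Av, ball intron: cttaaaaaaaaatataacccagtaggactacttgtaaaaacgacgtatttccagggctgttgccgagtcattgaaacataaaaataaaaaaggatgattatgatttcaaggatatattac
His2Av, gap to ball: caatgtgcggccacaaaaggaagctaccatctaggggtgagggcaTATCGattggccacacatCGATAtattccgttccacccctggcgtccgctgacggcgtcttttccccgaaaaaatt
His3.3B, intron: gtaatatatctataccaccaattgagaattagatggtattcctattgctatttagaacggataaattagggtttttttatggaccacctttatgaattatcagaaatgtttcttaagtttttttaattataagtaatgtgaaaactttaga
His3.3A, gap to CG14036: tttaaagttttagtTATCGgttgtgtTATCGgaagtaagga
His4r, gap to put: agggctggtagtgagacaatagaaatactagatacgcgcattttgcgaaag
The ball intron stretch and the His3.3B intron stretch are rich in A and T, with 30.8% and 25.8% G and C, and hold no capital letters. The gap between ball and His2Av has 52.9% G and C and 2 CGATA matches, at positions 46 and 64. The His3.3A gap holds 2 such matches in 31.7% G and C, and the His4r gap none in 43.1%.

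The optimal list holds the 7827 regions that passed the authors' reproducibility procedure, which are the 7827 strongest of the 30000 regions in the pooled list. Of the 6 genes, 2 had a transcription start site (TSS) with an optimal summit no more than 500 bp away, His2Av and His3.3B (33.33%, 95% exact Clopper-Pearson interval 4.327 to 77.72%). Of all protein-coding genes, 4205 of 13945 had one, 30.2%. The member share is thus near that of all genes, and its interval is wide because it rests on 6 genes. The same 2 genes had such a summit among the 7827 strongest regions of every replicate, against 3322 of all protein-coding genes (23.8%). With a window of 250 bp both counts fell to 1, His2Av, and with only the 5′ end of each gene as start site the optimal count was also 1, His2Av. A summit inside the gene was found in 1 of 6, His3.3B, against 2239 of all genes (16.1%). Including weak and background regions of the pooled list, 5 of 6 had a summit within 500 bp of a TSS, all but BigH1, against 7384 of all genes (53.0%). With genes that lack a pooled region placed last, the median pooled rank was 12716 for the 6 genes and 24787 for all genes. The lists give no read counts, so the depth is unknown. Intervals cover counting of genes only. The signal value is the authors' score with no stated scale, so it is read here only within one list, where rank 1 is the strongest region.

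**Figure D1:**
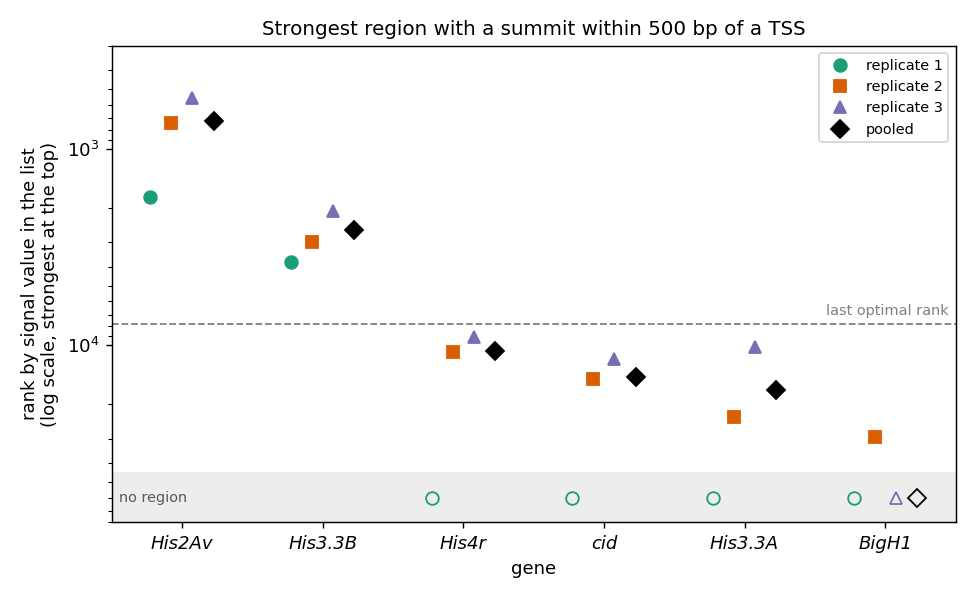
Rank by signal value (log axis, strongest at the top) of the strongest region with a summit within 500 bp of a TSS of each gene, for replicates 1 to 3 and the pooled list. Open symbols in the grey band mark lists with no such region, and the dashed line is the last rank of the optimal list, 7827. His2Av and His3.3B lie above that line in all lists, the other 4 genes in none.

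His2Av (FBgn0001197, 3R:26866929-26869220, plus strand, 2292 bp, 1 TSS) had the strongest binding of the 6 genes. One optimal region, 3R:26866548-26866955 (408 bp), carried 2 summits. The stronger, at 26866698, had a signal value of 727.7 and pooled rank 725, and lay 231 bp upstream of the His2Av TSS. The weaker, at 26866898, had a signal value of 176.5 and rank 5676, and lay 31 bp upstream, between the genes. The optimal list runs from 128.9 to 6456 with a median of 244.0, so the first summit was above its median and the second below it.

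The strongest His2Av region ranked 1771, 745 and 555 in replicates 1, 2 and 3, a mean rank of 1023.7 ± 654.1 (SD, n = 3). All 3 ranks lie in the top of lists of 29373, 30000 and 30000 regions, on average the top 3.45% ± 2.25 (SD, n = 3). Its signal value was 76.2, 322.0 and 331.5 in the 3 lists, each on that list's own scale. Its summit fell 213, 206 and 208 bp upstream of the TSS, so the 3 lists place it at nearly the same base. The weaker site was less repeatable: replicate 1 had it at rank 13973 (13 bp upstream) and replicate 2 at rank 11408 (5 bp upstream). Replicate 3 listed no separate summit there, although its strongest region, 3R:26866563-26866946, extends over the weaker summit. The next summit of replicate 3 was at rank 15003, 599 bp inside the gene. Among the genes with a region within 500 bp of a TSS, His2Av took place 717 of 7384 in the pooled list, and places 1429 of 6999, 758 of 7305 and 526 of 7601 in replicates 1, 2 and 3.

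His2Av shares this region with ball, transcribed the other way from a TSS 122 bp off. ball encodes nucleosomal histone kinase-1, which phosphorylates H2A. The stronger summit lay 109 bp downstream of the outer ball TSS and 73 bp upstream of the inner one, so it was nearer to both ball start sites than to that of His2Av. The weaker summit was 31 bp from the His2Av TSS and 91 bp from the nearest ball TSS. The data give 1 region for both genes and do not assign it to either. Downstream of His2Av lies SPARC, which encodes a collagen-binding protein of the extracellular matrix.

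His3.3B (FBgn0004828, X:9152523-9156669, minus strand, 4147 bp) was bound inside the gene. Its optimal region X:9155086-9155569 (484 bp) had 1 summit at 9155328, with a signal value of 334.6 and rank 2613. The summit was exonic in 0 of 4 annotated transcripts and lay 285 bp downstream of the middle one of 3 TSSs, between it and the innermost TSS. It was not near the 5′ end of the gene, which faces the 3′ end of Ost48 (a subunit of the oligosaccharyltransferase) across a gap of 259 bp. In replicates 1, 2 and 3 the region ranked 3790, 3003 and 2087, a mean of 2960.0 ± 852.3 (SD, n = 3), or the top 9.96% ± 2.97 of each list. The signal values were 45.9, 135.5 and 153.6. The summits lay at 9155362, 9155328 and 9155292. No other protein-coding gene has a TSS within 500 bp of this summit, and the nearest TSS of another gene, that of Ost48, is 3187 bp away.

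A second optimal region lay just past the 3′ end of His3.3B, at X:9151997-9152480, with its summit at 9152239, a signal value of 176.0 and rank 5692. The summit was 284 bp beyond the annotated end, in the interval towards Bap111, which encodes a subunit of the Brahma chromatin remodelling complex. In replicates 1, 2 and 3 a region was present there at ranks 11249, 7281 and 4244, with summits 383, 293 and 272 bp past the gene end. Its rank was below that of the intronic region in each of the 3 replicates. Only in replicates 2 and 3 was it among the 7827 strongest.

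**Figure D2:**
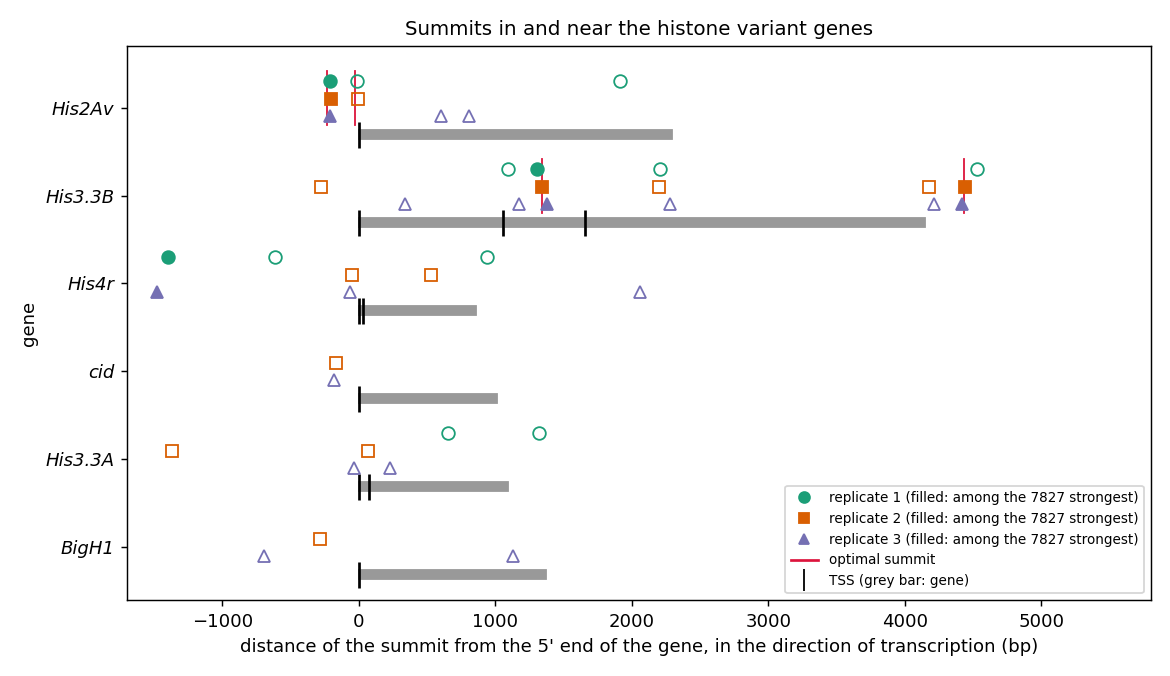
Summits of the replicate lists (symbols, filled where the region is among the 7827 strongest of its list) and of the optimal list (red lines) in and around each gene, as distance in bp from the 5′ end of the gene in the direction of transcription. Grey bars are genes and black ticks are start sites. The 3 replicates coincide 206 to 213 bp upstream of His2Av, and in the intron of His3.3B they lie between bases 9155292 and 9155362. At the other genes filled symbols appear only far upstream of His4r.

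His2Av ranked above His3.3B in 3 of 3 replicates, and the ranges of their ranks did not overlap (555 to 1771 for His2Av, 2087 to 3790 for His3.3B). An exact two-sided permutation test on 3 pairs cannot go below p = 0.25, so none was run. For both genes replicate 1 had the lowest standing and replicate 3 the highest. The genes whose strongest promoter region came closest to these ranks, by Euclidean distance of the log10 ranks over the 3 replicates among 5807 genes, were CG18622 (1808, 761 and 475) and egh (2017, 854 and 621) for His2Av. For His3.3B they were Sur-8 (3540, 3014 and 2067) and Nt5a (3915, 2795 and 2137).

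The H3.3 genes thus differed although they encode one protein. His3.3A (FBgn0014857, 2L:5055058-5056149, plus strand, 1092 bp, 2 TSSs) had no optimal region. Its pooled region had a signal value of 54.5 and rank 16942, with the summit 7 bp upstream of the second TSS. Replicate 1 listed no summit within 500 bp, replicate 2 listed one at rank 23382 and replicate 3 at rank 10286. His3.3B was the stronger in every list, and the His3.3A ranks of replicates 2 and 3 lay outside the range of those of His3.3B. The start site of His3.3A is 42 bp from that of the divergent gene CG14036. Of the 36-base words within 500 bp of its start sites, 99.38% occur once in the genome, against 100% at His3.3B.

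His4r (FBgn0013981, 3R:14625755-14626614, plus strand, 860 bp) came nearest to the optimal list among the 4 genes outside it. Its pooled region had a signal value of 90.5, against 128.9 at the end of the optimal list, and rank 10782. The summit lay 67 bp upstream of His4r and 15 bp inside the 5′ untranslated region of put, the divergent gene for a type II receptor of the TGF-beta family. Replicate 1 had no summit within 500 bp, and its nearest was 613 bp upstream at rank 14893. Replicates 2 and 3 had one at ranks 10812 and 9079, 53 and 68 bp upstream. A stronger region in an intron of put was 1396 bp upstream in replicate 1 (rank 3736) and 1475 bp upstream in replicate 3 (rank 3447). The interval searched ended just beyond the replicate 3 summit. Within it, replicate 2 listed no summit in this intron, and the pooled list had one at rank 19798 (1308 bp upstream). Whether these 2 lists hold a summit further upstream was not examined.

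At cid (FBgn0040477, 2R:13485617-13486631, plus strand, 1015 bp) the pooled list had a region of signal value 63.9 and rank 14651, with its summit 155 bp upstream. The summit was between cid and cbc, which encodes an RNA kinase, 71 bp from the cbc TSS. Replicate 1 had no region there, and replicates 2 and 3 had one at ranks 14826 and 11803. BigH1 (FBgn0038252, 3R:14663450-14664822, plus strand, 1373 bp) had the weakest values. The pooled list and replicates 1 and 3 had no summit within 500 bp of its TSS. Replicate 2 had one at rank 29578 of 30000, 288 bp upstream and inside Rad17, the gene of a checkpoint clamp loader. In replicates 2 and 3 the ranks of His4r (9079 to 10812) did not overlap those of cid (11803 to 14826), while those of His3.3A (10286 to 23382) overlapped both. His4r therefore stood above cid in both of these replicates. It also ranked above His3.3A within each (10812 against 23382 and 9079 against 10286), although their ranges overlap. The order of cid and His3.3A changed between these replicates and is not resolved by these lists.

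**Figure D3:**
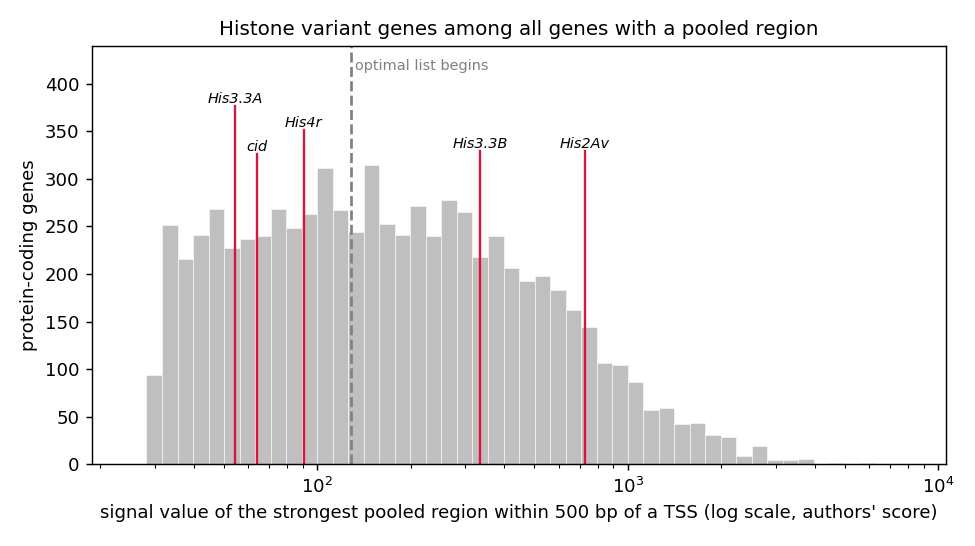
Number of protein-coding genes by the signal value of their strongest pooled region within 500 bp of a TSS (log axis, the authors' score), for the 7384 genes that have one. Red lines mark 5 of the 6 histone variant genes, and the dashed line marks the lowest signal of the optimal list, 128.9. His2Av (727.7) and His3.3B (334.6) lie right of it, and His4r (90.5), cid (63.9) and His3.3A (54.5) left of it.

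Most of the 6 genes share their promoter with a neighbour. A divergent protein-coding gene with a TSS within 500 bp was found at 5 of 6, all but His3.3B, against 3481 of 13945 genes (25.0%). Of the 5, only His2Av had an optimal summit at its promoter, no more than 500 bp from the TSS. Of the 3481 genes with a divergent partner 2012 had one, 57.8%. Of the 10464 genes without such a partner, 2193 (20.96%) had one, and His3.3B belongs to these.

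The sequences at the summits were searched for 8 short motifs on both strands. The insulator motif CGATA was described above, and the DNA replication-related element TATCGATA contains it, so that a match to the longer one is also a match to the shorter. The core of the motif bound by the promoter factor M1BP was searched as GGTCACAC, and an E-box as the hexamer CAGCTG. The site of GAGA factor was searched as GAGAG and the TATA box as the hexamer TATAAA. The initiator was searched as TCAGT and the site of the Polycomb recruiter Pho as GCCAT. None of the 8 lay within 50 bp of the stronger His2Av summit, of the intronic His3.3B summit or of the summit past the His3.3B end. The weaker His2Av summit, which lies in the gap printed above, had 2 CGATA matches. CGATA was present at 16.76% of all optimal summits, and the other motifs at between 1.073% (GGTCACAC) and 23.42% (TATAAA). G and C made up 34.7% of the bases at the stronger His2Av summit and 26.7% at the intronic His3.3B summit, against a median of 31.7% over all optimal summits. They made up 50.5% at the weaker His2Av summit and 44.6% at the one past the His3.3B end. From 250 bp before to 50 bp after the 5′ end, His2Av, His3.3A, His4r and cid held CGATA, against 47.45% of all genes. His3.3B held none there, only at its innermost start site. None of these 5 genes held TATCGATA at the 5′ end, against 9.365%, or at a further start site. At the same 5′ ends, CAGCTG was found at His3.3A and cid (17.69% of all genes), TATAAA at His3.3B and cid (45.86%), and TCAGT at His4r and cid (51.63%). GGTCACAC was found at cid (7.709%), GAGAG at His3.3B (29.82%) and GCCAT at His4r (41.33%). BigH1 is not included in these motif counts, so nothing is said of it here. A match is a string of letters here, not a measured site.

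The replication-dependent copies of these histones gave no values for comparison. The cluster at 2L:21416953-21541681 holds 111 genes, and none of the lists used here has a summit in it. At the 22 H4 copies, between 0 and 18.12% of 36-base words within 500 bp of the start site occur once in the genome, against 100% at His4r. Whether reads from the cluster could be placed was not tested.

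Genes for proteins that place histones in chromatin, belong to the kinetochore or serve the expression of the canonical histones were listed in 5 groups of 59 genes in all. Of these, 29 had an optimal summit at the promoter, by the same 500 bp limit (49.15%), against 30.2% of all protein-coding genes. In the top list of every replicate, 25 of the 59 had one, against 23.8% of all genes; Tip60 is among the 25 but not among the 29. The median pooled rank was 7848 for the 59 genes and 24787 for all genes. The groups were drawn up with earlier results of these data known, so these shares are descriptions. However, 34 of the 59 (57.6%) have a divergent partner, against 25.0% of all genes, and 26 of the 29 bound genes share the summit with another gene, against 2496 of the 4205 bound genes overall (59.4%). The part of this gene arrangement in the counts was not tested.

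The H3.3 deposition group had 5 of 6 genes bound (83.33%), against 30.2% of all genes, and a median pooled rank of 1788, against 24787 for all genes. A divergent partner was present at 5 of the 6 genes (83.3%), and 57.8% of all genes with such a partner were bound. In order of signal value in the optimal list they were Chd1 (852), a remodeller that helps to deposit H3.3, Daxx (826), the H3.3 chaperone, yem (764), the ubinuclein partner of Hira, XNP (307), the ATRX homologue, and asf1 (158), a chaperone of H3 and H4. Chd1 ranked 410, 363 and 1114 in replicates 1, 2 and 3, Daxx ranked 709, 554 and 626, and yem ranked 1070, 666 and 607. These 3 genes ranked above His3.3B in each replicate. They ranked above His2Av in replicates 1 and 2 and below it in replicate 3. All 5 share their summit with another gene, and asf1 was not in the top list of replicate 1 (rank 15511). Hira itself, the chaperone that assembles H3.3 on paternal chromatin, was not bound, with a pooled signal value of 84.5 and rank 11407.

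The H2Av exchange group, made of subunits of the Domino and Tip60 complexes, had 6 of 17 genes bound (35.29%), near the share of all genes. The strongest were the ATPase genes pont (1043) and rept (449), Gas41 (951), Act87E (449) and MrgBP (293), followed by YL-1. dom, the ATPase that exchanges H2A for H2Av, had no pooled region within 500 bp of a TSS, and ranked 5059, 14248 and 5929 in replicates 1, 2 and 3. Tip60, the acetyltransferase, was in the top list of every replicate (ranks 7165, 7104 and 7574) but had pooled rank 8715, just outside the optimal list.

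The centromere group, made of genes for Cid loading and for kinetochore proteins, had 3 of 10 genes bound (30%), against 30.2% of all genes. The bound ones were Mis12 (379), Spc25 (355) and Cenp-C (252). The Cid chaperone gene cal1 was not bound and had pooled rank 20190, so neither cid nor the gene for its loading factor had an optimal region. Of the general histone chaperones and remodellers, 9 of 16 were bound (56.25%), against 30.2% of all genes. Of these 16 genes, 8 have a divergent partner, and 57.8% of all genes with such a partner were bound. Of the 9 bound genes, 8 share the summit with another gene. The strongest were dre4 (446), the Spt16 subunit of FACT, Acf (321) and Spt6 (299). Nlp and Nph (206 each) share 1 summit and are not independent. Ssrp, the other FACT subunit, had no region within 500 bp of a TSS in any list. Of the genes for expression of the canonical histones, 6 of 10 were bound (60%), against 30.2% of all genes. A divergent partner was present at 8 of the 10 genes (80.0%), and 57.8% of all genes with such a partner were bound. All 6 bound genes share the summit with another gene. They were Cpsf100 (792), mxc (375), Sym (325), mute (210), Cpsf73 (200.5) and 1 other, Slbp, which binds the stem-loop of histone mRNAs. mxc and mute encode proteins of the histone locus body, and Cpsf100, Cpsf73 and Sym belong to the machinery that cuts histone mRNAs.

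**Figure D4:**
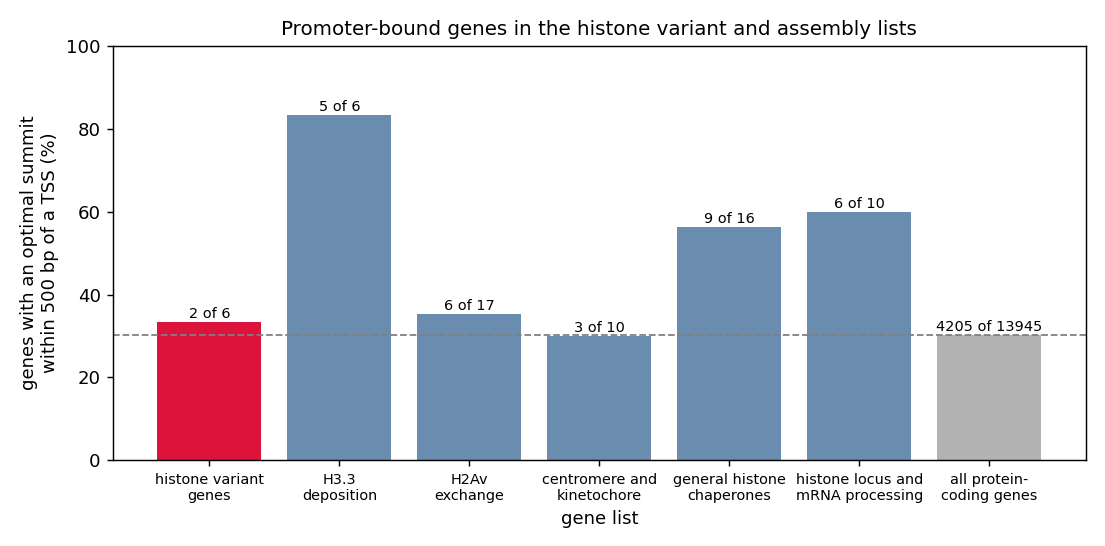
Share of genes whose TSS had an optimal summit no more than 500 bp away (%, axis from 0), for the 6 histone variant genes (red), the 5 gene groups (blue) and all protein-coding genes (grey, also the dashed line at 30.2%). The groups cover histone deposition, the kinetochore and the expression of canonical histones. Counts stand above the bars. The histone variant genes (2 of 6), the H2Av exchange group (6 of 17) and the centromere group (3 of 10) lie near the line.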

How the data were processed

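Region lists in narrowPeak format on dm6 were used: 1 for each of the 3 replicates, 1 for the pooled replicates and the optimal list. Per the labels and the deposited text notes, replicate and pooled lists hold peaks with background regions for the irreproducible discovery rate (IDR) procedure. The aligner and the caller of the regions, like the IDR threshold, are not stated in those sources and so not given in the sources used here. Signal values are a score deposited by the authors with no stated scale, and the lists also hold a −log10 of the q value deposited by the authors, 4.23 throughout the optimal list, which was not used for ranking. Lists on dm3 were not used here, and 1 further stretch of sequence is not reported here.

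Each list was ranked by its signal value. The start sites of every transcript were those of Ensembl release 115, and bases were read from the NCBI RefSeq Release 6 assembly. A gene counted as bound when a start site had an optimal summit no more than 500 bp away. The background was all 13945 genes annotated as protein-coding on the chromosome arms X, 2L, 2R, 3L, 3R and 4. All 59 symbols kept in the gene groups matched. Symbols without a match or of uncertain role had been left out. Proteins were translated from the annotated coding sequence and aligned locally with BLOSUM62. Uniqueness counts 36-base words, a length chosen here, since the read length is unknown.

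The members, gene groups and motifs were chosen with earlier results of these data known. Named genes are the members, their neighbours, up to 5 bound genes of each group, and the 2 genes nearest in rank to each bound member; genes of the groups named without being bound, with Slbp and YL-1, were chosen after their values were seen. With 1 group, no test between conditions was made. Replicates are called biological in the labels. Alternatives were promoter windows of 250 and 1000 bp, any overlap, the stronger 50% of optimal regions, gene 5′ ends only, 1 summit per merged region, other list lengths and leaving out each replicate. The search was tested on simulated data. Tools were Python 3.11.15, pandas 2.3.3, NumPy 2.4.6, SciPy 1.17.1, Biopython 1.88 and Matplotlib 3.10.9.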

Additional observations from a re-analysis of the deposited data

How the results depend on the processing

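The choice of window decided the call of His3.3B. With a promoter window of 250 bp, 1 of the 6 genes was bound, His2Av, both in the optimal list and in every replicate, and with only the 5′ end of the gene as start site it was again 1, His2Av. The His3.3B summit lies 285 bp from an internal start site, which these settings leave out, and its mean rank has no value at 250 bp. With the summit in the gene or within 500 bp of its ends, 2 of 6 genes counted, His2Av and His3.3B, and 37.9% of all genes. With the stronger 50% of optimal regions, 19.7% of all genes and 18 of the 59 genes of the listed groups were bound, and 10.1% of all genes had a summit in the gene. For genes found in every replicate, the share of all genes was 15.3% with the 4000 strongest regions and 41.6% with whole lists. These shares follow from the number of regions or the width used. Leaving out each replicate in turn left 2 of 6 genes found in every remaining replicate, with 24.9 to 26.9% of all genes. The mean rank was then 650.0 to 1258.0 for His2Av and 2545.0 to 3396.5 for His3.3B. In all, 37 of the values under alternatives stayed within the set limits (1.5 times for counts and shares, 1 SD for ranks) and 10 did not. No paired analysis was possible because the samples form 1 group.

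The lists give no read counts, so a missing region cannot be told from one too weak to be listed, and 6 genes give a share with wide limits.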
